A study of Homo sapiens with 6 samples.

Results

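The catecholamine genes described here are 10 genes that make, package, take up or break down dopamine and noradrenaline, or that fill the granules in which these amines are stored: TH, DDC, DBH, GCH1, SLC18A1, SLC18A2, SLC6A2, CHGA, CHGB and MAOA. They were chosen by name, out of 58302 genes in each expression table, and all 10 were found and had a mean of at least 1 FPKM (a read count scaled by exon length and by the size of the library). RNA-seq was carried out in SK-N-BE(2), an established MYCN-amplified human neuroblastoma line. The question was which genes change when Prp19, a splicing factor encoded by PRPF19, is knocked down. One group of 3 samples received the control siRNA (siNC, labelled NC) and the other group of 3 received siRNA against Prp19 (siPrp19), both by transient transfection, and the labels give 72 h for the knockdown. The paper's methods state a shorter time. The cells of the 2 groups are otherwise the same line in the same medium. The labels number the samples of each group 1 to 3 without naming separate cultures, and the methods call them biological replicates. P-values measure the spread between these samples, which may be technical if the cultures were not separate.

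Catecholamines are built from tyrosine. Tyrosine hydroxylase (TH) makes L-DOPA with tetrahydrobiopterin, whose synthesis begins with GTP cyclohydrolase (GCH1), then aromatic amino acid decarboxylase (DDC) makes dopamine, and dopamine beta-hydroxylase (DBH) makes noradrenaline inside the granule. The vesicular monoamine transporters VMAT1 (SLC18A1) and VMAT2 (SLC18A2) load the amines into granules held together by chromogranins (CHGA, CHGB), the noradrenaline transporter (SLC6A2) brings released amine back, and monoamine oxidase A (MAOA) degrades it. Neuroblastoma arises from the sympathoadrenal lineage, and catecholamine products are a clinical marker of the tumor.

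The target of the siRNA was checked first. PRPF19 stood at 53.1, 53.1 and 64.9 FPKM in siNC replicates 1 to 3 and at 21.8, 28.5 and 33.6 FPKM in siPrp19 replicates 1 to 3. Every siPrp19 sample lay below every siNC sample, and the siPrp19 mean was 49.0% of the siNC mean. The libraries held 19058782 to 21943936 reads on genes with siNC and 22273026 to 24181789 with siPrp19. The samples numbered 3 stood apart from the others in both groups. Their log2 values correlated across genes at 0.960 with each other and at 0.896 to 0.927 with the remaining samples. The samples numbered 1 correlated with each other at 0.964, those numbered 2 at 0.965, and 1 with 2 at 0.936 to 0.953. Reads of mitochondrial genes made up 5.06% and 5.39% of the reads in the samples numbered 3, against 2.74% to 3.09% elsewhere. Results are therefore also given by same-numbered pair.

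All 10 genes were detected in all 6 samples, over a wide range of levels. By mean FPKM over the 6 samples, which is a level per length of transcript, TH was the highest (197.9), followed by CHGA (89.9), DDC (52.9), CHGB (36.4), DBH (25.0), SLC6A2 (10.9), MAOA (4.04), GCH1 (3.74), SLC18A1 (3.16) and SLC18A2 (1.06). The lowest TH value, 143 FPKM, lay above the highest CHGA value, 121.4 FPKM, and the lowest CHGA value, 73.5 FPKM, lay above the highest DDC value, 61.7 FPKM. The ranges of DDC, CHGB and DBH overlapped their neighbours in this order, as did DBH and SLC6A2. SLC6A2 did not overlap MAOA, while MAOA, GCH1, SLC18A1 and SLC18A2 each overlapped the next gene.

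**Figure D1:**
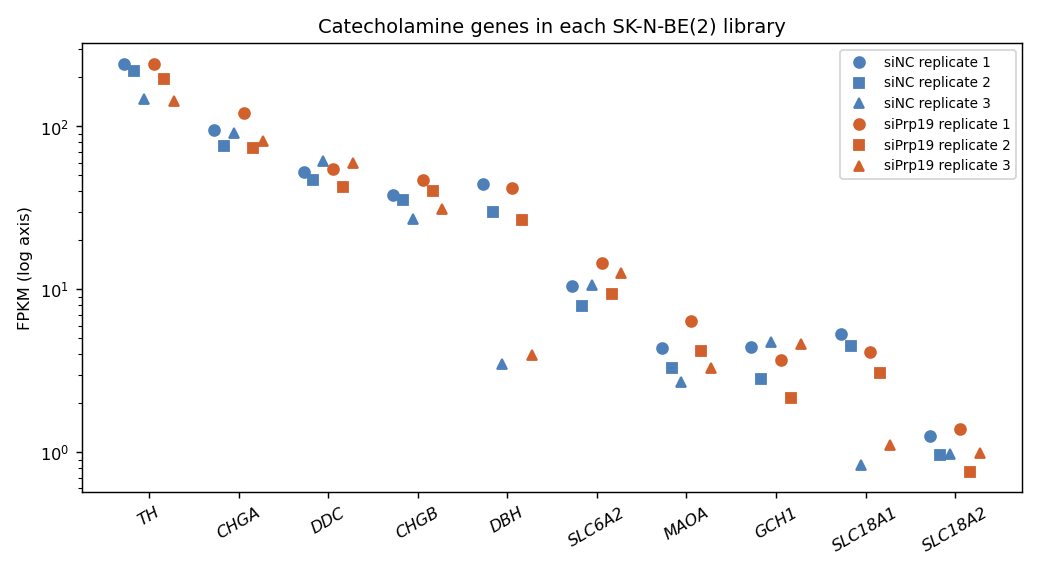
FPKM (log axis) of the 10 catecholamine genes in each library, ordered by mean level, with siNC in blue, siPrp19 in orange and the replicate number as circle, square or triangle. The siNC and siPrp19 points of every gene overlap, and the triangles (replicate 3) of DBH and SLC18A1 lie far below the circles and squares in both groups.

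The promoter windows of 3 genes are shown because DBH varied most between samples, and because CHGA and SLC18A2 hold a motif found in few other windows. They are RefSeq sequences on GRCh38.p14, read in the direction of the gene from 250 bases before the start to 50 after it. DBH lies at chr9:133636113-133636412 on the plus strand, SLC18A2 at chr10:117240864-117241163 on the plus strand and CHGA at chr14:92922900-92923199 on the plus strand. Capitals mark matches, on either strand, to TGACGTCA (the full cAMP response element), to its half-site TGACG, to ATTA (the homeodomain core) and to TATAA (the TATA core).
DBH: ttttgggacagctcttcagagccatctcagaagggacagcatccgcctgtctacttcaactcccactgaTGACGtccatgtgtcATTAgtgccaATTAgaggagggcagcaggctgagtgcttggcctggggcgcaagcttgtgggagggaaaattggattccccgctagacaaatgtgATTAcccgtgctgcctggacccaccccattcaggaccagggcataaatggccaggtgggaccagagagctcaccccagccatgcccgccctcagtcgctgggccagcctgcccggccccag
SLC18A2: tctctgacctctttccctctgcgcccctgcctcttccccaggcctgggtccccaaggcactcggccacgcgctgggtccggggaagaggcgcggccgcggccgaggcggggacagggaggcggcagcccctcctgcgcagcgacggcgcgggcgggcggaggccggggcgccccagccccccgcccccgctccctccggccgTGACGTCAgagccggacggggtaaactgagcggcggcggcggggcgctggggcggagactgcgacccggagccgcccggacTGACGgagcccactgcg
CHGA: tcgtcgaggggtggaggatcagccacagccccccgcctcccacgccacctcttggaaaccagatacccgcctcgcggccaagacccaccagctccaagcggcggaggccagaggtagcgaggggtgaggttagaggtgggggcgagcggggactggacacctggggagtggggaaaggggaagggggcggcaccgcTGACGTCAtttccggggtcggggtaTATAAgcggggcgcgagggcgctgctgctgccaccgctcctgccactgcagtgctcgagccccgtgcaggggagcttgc
The DBH window held a TGACG half-site that began 181 bases before the start and 3 ATTA cores 166, 156 and 71 bases before it. CHGA and SLC18A2 each held the full TGACGTCA, 54 and 48 bases before their starts, which also counts as a half-site on each strand. SLC18A2 held a separate TGACG half-site after its start, beginning at base 34. CHGA held TATAA 29 bases before its start. Of 34794 windows of the same length, 1.84% held TGACGTCA, 24.5% held TGACG or CGTCA, 50.3% held ATTA or TAAT and 20.5% held TATAA or TTATA. Such matches are letters in a window and were not tested as binding sites. Windows were found for 5 of the 10 genes, these 3 with DDC and MAOA.

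Knockdown of Prp19 was followed by small differences in the catecholamine genes. SLC6A2, CHGB and MAOA were higher with siPrp19 in all 3 pairs, TH and GCH1 were lower in all 3 pairs, and DDC, DBH, SLC18A1, SLC18A2 and CHGA moved in both directions. The siPrp19 mean lay between 78.7% (SLC18A1) and 134.0% (MAOA) of the siNC mean. None of the 10 passed limma on log2(FPKM + 0.1) with Benjamini-Hochberg adjustment over 14462 genes, either without a block or with replicate number as blocking factor, and in both fits the share of all genes called was 0%, so PRPF19 was not called either. In voom with the block, described below, PRPF19 passed with an adjusted p of 4.5e-11.

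The synthesis enzymes differed little between the groups. TH (ENSG00000180176, chromosome 11 from 2163929 to 2171877, minus strand), the rate-limiting enzyme, was 242.4, 219.8 and 148 FPKM with siNC and 240.2, 194.4 and 143 FPKM with siPrp19. The groups overlapped, and the samples numbered 3 were the lowest in each. The means were 203 ± 49.3 with siNC and 192 ± 48.8 with siPrp19 (SD, n = 3 each), and the pairs differed by −0.01, −0.18 and −0.05 on the log2(FPKM + 0.1) scale. With the replicate block the log2 difference was −0.08 (SE 0.05, 95% interval −0.21 to 0.04), with a limma adjusted p of 0.465.

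DDC (ENSG00000132437, chromosome 7 from 50458436 to 50565457, minus strand), which turns L-DOPA into dopamine, was 52.5, 46.7 and 61.7 FPKM with siNC and 54.9, 42.4 and 59.4 FPKM with siPrp19. The groups overlapped, and replicate 3 was the highest in each. The log2 difference with the block was −0.04 (SE 0.05, 95% interval −0.18 to 0.10, limma adjusted p = 0.740). DDC shares its locus with FIGNL1 on the same strand, which stood at 6.85 to 9.37 FPKM.

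DBH (ENSG00000123454, chromosome 9 from 133635348 to 133659344, plus strand), the enzyme that sets noradrenergic cells apart from dopaminergic ones, was 44.2, 30.04 and 3.49 FPKM with siNC and 41.9, 26.7 and 3.94 FPKM with siPrp19. In each group replicate 3 was far below the other 2 samples, and within each pair the siNC and siPrp19 values were close. The means of 25.9 ± 20.7 and 24.2 ± 19.1 FPKM (SD, n = 3 each) therefore had SDs near their own size. The pairs differed by −0.08, −0.17 and 0.17, and the log2 difference with the block was −0.03 (SE 0.08, 95% interval −0.23 to 0.18, limma adjusted p = 0.898). Without the block the interval ran from −2.87 to 2.82.

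GCH1 (ENSG00000131979, chromosome 14 from 54842008 to 54902852, minus strand), which supplies the cofactor of TH, was 4.41, 2.81 and 4.73 FPKM with siNC and 3.70, 2.17 and 4.60 FPKM with siPrp19. It was lower with siPrp19 in every pair, by 0.25, 0.36 and 0.04 on the log2 scale in pairs 1, 2 and 3, while the groups overlapped. The log2 difference with the block was −0.22 (SE 0.09, 95% interval −0.45 to 0.02, limma adjusted p = 0.346). GCH1 rested on 133 to 337 reads per sample, against 9499 to 17697 for TH.

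Both vesicular transporters were at low levels. SLC18A1 (ENSG00000036565, chromosome 8 from 20144855 to 20183206, minus strand), the transporter typical of endocrine chromaffin cells, was 5.29, 4.47 and 0.840 FPKM with siNC and 4.15, 3.09 and 1.10 FPKM with siPrp19. It was lower with siPrp19 in pairs 1 and 2, by 0.34 and 0.52, and higher in pair 3, by 0.36 on the log2 scale. In pair 3 it rested on 65 reads with siNC and 107 with siPrp19. The log2 difference with the block was −0.17 (SE 0.19, 95% interval −0.66 to 0.32, limma adjusted p = 0.703).

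SLC18A2 (ENSG00000165646, chromosome 10 from 117241073 to 117279430, plus strand), the transporter typical of neurons, was 1.27, 0.964 and 0.981 FPKM with siNC and 1.39, 0.758 and 0.997 FPKM with siPrp19. Its groups overlapped and no sample stood far from the rest. The log2 difference with the block was −0.06 (SE 0.23, 95% interval −0.65 to 0.54, limma adjusted p = 0.929), and this interval holds changes as large as that of MAOA, so one of that size was not detectable here. PDZD8 overlaps SLC18A2 on the other strand and stood at 5.69 to 7.05 FPKM.

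Of the chromogranins, CHGA was second to TH in mean level and CHGB lay below DDC. CHGA (ENSG00000100604, chromosome 14 from 92923080 to 92935293, plus strand) was 95.5, 76.1 and 91.1 FPKM with siNC and 121.4, 73.5 and 81.5 FPKM with siPrp19. It was higher with siPrp19 in pair 1, by 0.35 on the log2 scale, and lower in pairs 2 and 3, by 0.05 and 0.16. The log2 difference with the block was 0.05 (SE 0.10, 95% interval −0.22 to 0.32, limma adjusted p = 0.860).

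CHGB (ENSG00000089199, chromosome 20 from 5911430 to 5925361, plus strand) was 38.0, 35.5 and 27.1 FPKM with siNC and 46.7, 40.4 and 31.0 FPKM with siPrp19. Each siPrp19 sample lay above the siNC sample of the same number, although the groups overlapped because replicate 3 was low in both. The pairs differed by 0.30, 0.19 and 0.19, and the log2 difference with the block was 0.22 (SE 0.05, 95% interval 0.10 to 0.35, limma adjusted p = 0.204). It rested on 2433 to 4809 reads per sample.

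The uptake transporter and the degrading enzyme were higher in all 3 pairs. SLC6A2 (ENSG00000103546, chromosome 16 from 55655604 to 55706192, plus strand), through which neuroblastoma cells take up the imaging agent MIBG, was 10.5, 7.86 and 10.7 FPKM with siNC and 14.5, 9.33 and 12.6 FPKM with siPrp19. The pairs differed by 0.46, 0.25 and 0.23, and the log2 difference with the block was 0.31 (SE 0.07, 95% interval 0.14 to 0.49, limma adjusted p = 0.207). AC136621.1, an overlapping unclassified gene on the same strand, stood at 3.72 to 6.95 FPKM.

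MAOA (ENSG00000189221, chromosome X from 43654907 to 43746824, plus strand) was 4.35, 3.31 and 2.70 FPKM with siNC and 6.39, 4.21 and 3.28 FPKM with siPrp19. It showed the largest mean change of the 10 genes, with pair differences of 0.54, 0.34 and 0.27 and a log2 difference with the block of 0.38 (SE 0.08, 95% interval 0.17 to 0.60, limma adjusted p = 0.207). Its groups overlapped, since replicate 3 with siPrp19 lay below replicates 1 and 2 with siNC.

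**Figure D2:**
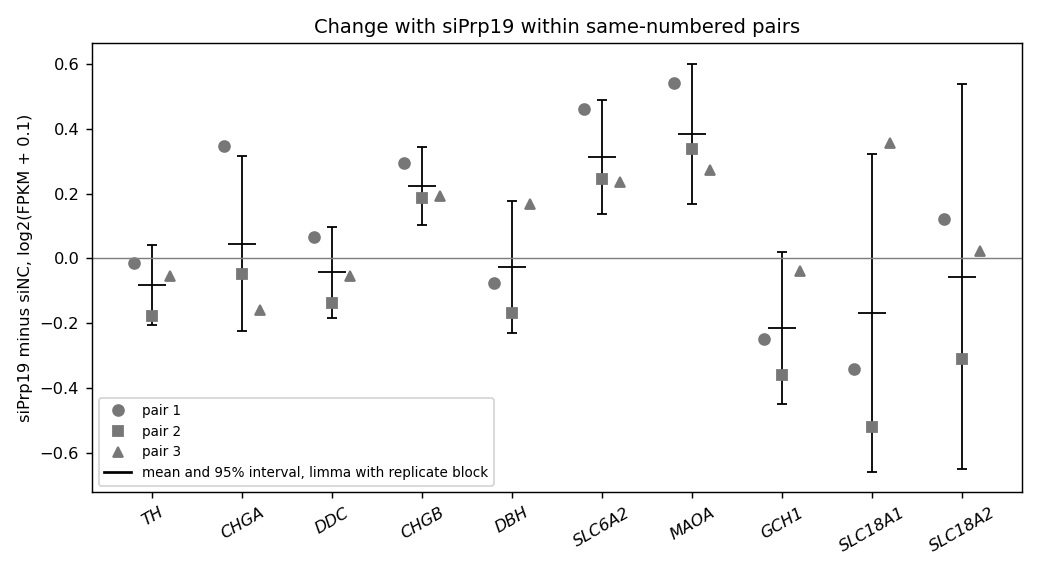
Difference of log2(FPKM + 0.1) between siPrp19 and siNC in each same-numbered pair (grey circle, square and triangle for pairs 1, 2 and 3), with the mean and its 95% interval from limma with the replicate block in black. The intervals of SLC6A2, CHGB and MAOA lie above 0 and those of the other 7 genes cross 0.

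The counts for the 10 genes were set against those for all genes. Higher in all 3 pairs were 3 of the 10 genes and 19.2% of 14462 genes, and lower in all 3 pairs were 2 of the 10 and 21.3% of all genes. Groups that did not overlap were found for 0 of the 10 genes and for 5.61% of all genes. The median log2 difference was −0.03 over the 10 genes and −0.00 over all genes, and the median of its size was 0.13 and 0.10. In the exact permutation test of 3 against 3, which cannot give a p below 0.1, the p of single genes ranged from 0.3 (SLC6A2) to 1 (SLC18A2).

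A call depended on the kind of test. At an unadjusted p under 0.05, limma without the block found 225 genes and none of the 10, and limma with the block found 15.7% of all genes and 3 of the 10 (SLC6A2, CHGB and MAOA). When limma voom with the replicate block was run on the reads recovered from the FPKM values, 8 of the 10 genes could be included, and the same 3 were called higher, against 2.61% of all genes called higher. The voom adjusted p was 0.00308 for SLC6A2 (log2 difference 0.32), 0.00489 for MAOA (0.42) and 0.00961 for CHGB (0.23). None of the 8 was called lower, against 4.3% of all genes, and voom without the block called 0 genes. With the samples numbered 3 left out, a choice made after seeing the data, the same 3 were called higher, against 3.18% of all genes. SLC18A1 was called lower (log2 difference −0.43, voom adjusted p = 0.0104), against 5.9% of all genes. Pair 3 was the only pair in which SLC18A1 was higher (by 0.36), so leaving it out fixed the direction of this call. With only pairs 1 and 2, the fit also has little from which to estimate the spread. In bulk RNA, a lower level can come from fewer cells that express a gene or from less RNA per cell, and the data cannot tell these apart.

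For every catecholamine gene but SLC6A2, the samples numbered 3 differed from the others by more than siPrp19 differed from siNC in the blocked limma fit. The log2 differences of SLC6A2 were 0.18 and 0.31. For CHGA and SLC18A2 both differences lay within their errors. The replicate 3 difference was largest for DBH, SLC18A1 and TH. DBH was 10.6-fold lower in replicate 3 than in the mean of replicates 1 and 2 with siNC and 8.71-fold lower with siPrp19. SLC18A1 was 5.81-fold and 3.28-fold lower, and TH was 1.56-fold and 1.52-fold lower. In a limma F-test of the replicate number in the blocked fit, 8 of the 10 genes passed an adjusted p under 0.05, as did 49.6% of all genes. This test takes in any difference among the replicate numbers, not only one of replicate 3. Replicate 3 was singled out after its values were seen.

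The genes that passed did not move together. The direction was read from the sign of replicate 3 minus the mean of replicates 1 and 2, which was not tested on its own. By this sign replicate 3 was lower for DBH, SLC18A1, TH, MAOA and CHGB, 5 of the 10 against 24.8% of all genes. It was higher for GCH1, DDC and SLC6A2, 3 of the 10 against 24.8%. The log2 difference was −3.20 for DBH (SE 0.08, limma F-test adjusted p = 0.000399), a size that 51 of 14462 genes (0.353%) exceeded. It was −2.01 for SLC18A1 (SE 0.20, adjusted p = 0.00528), which 242 genes exceeded (1.67%). The other 3 genes that were lower differed less, by −0.62 for TH (SE 0.05), −0.56 for MAOA (SE 0.09) and −0.46 for CHGB (SE 0.05).

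Among the genes that were higher in replicate 3, GCH1 differed by 0.55 (SE 0.10), DDC by 0.31 (SE 0.06) and SLC6A2 by 0.18 (SE 0.07). In each of these genes replicate 2 was the lowest sample of both groups. For SLC6A2 with siPrp19, replicate 3 (12.6 FPKM) lay below replicate 1 (14.5 FPKM). CHGA (−0.06, SE 0.11, limma F-test adjusted p = 0.0505) and SLC18A2 (−0.10, SE 0.24, adjusted p = 0.265) did not pass. The call of CHGA turned with the processing, from an adjusted p of 1.24e-05 in voom with the block, 0.0128 at a mean of at least 5 FPKM, 0.0321 with quantile normalization and 0.0362 with TPM to 0.153 without siPrp19 replicate 2. The median size of the difference was 0.50 over the 10 genes and 0.29 over all genes. The overlapping antisense gene DBH-AS1 stood at 3.39, 2.79 and 1.84 FPKM with siNC and at 4.03, 2.77 and 2.73 FPKM with siPrp19. Since the use of strand in counting is not given in the sources used here, reads of DBH and DBH-AS1 may not be told apart, and in the samples numbered 3 DBH itself stood at 3.49 and 3.94 FPKM.

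**Figure D3:**
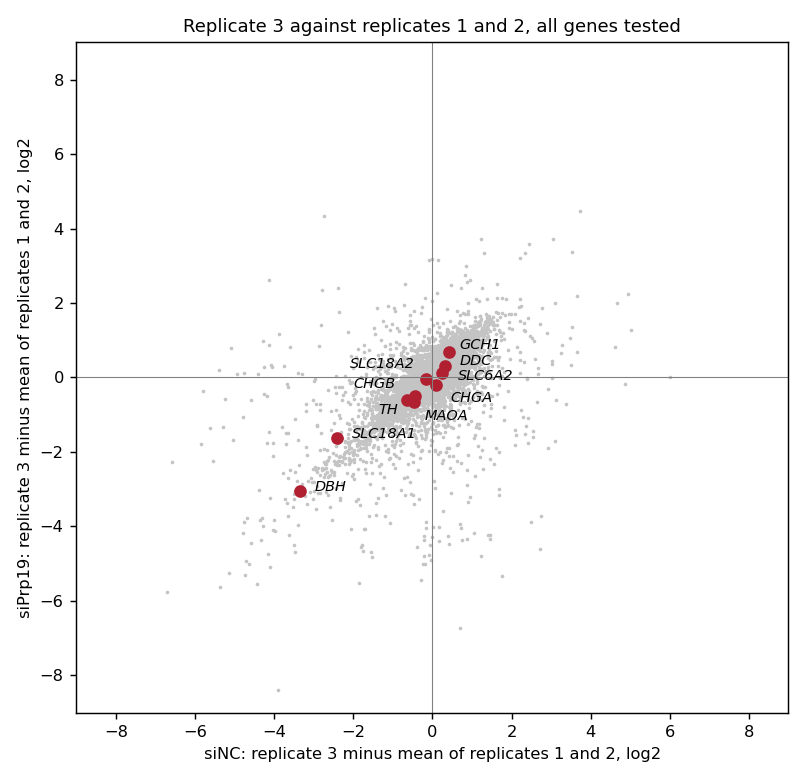
Replicate 3 minus the mean of replicates 1 and 2 on the log2 scale, with siNC on the horizontal axis and siPrp19 on the vertical axis, for all 14462 genes tested (grey) and the 10 catecholamine genes (red). DBH and SLC18A1 lie at the lower left, below 0 in both groups, and the other 8 lie near the centre.

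The steps of the pathway therefore stood in different proportions in replicate 3. The ratio of DBH to TH, taken from FPKM values, was 0.182, 0.137 and 0.0236 with siNC and 0.174, 0.137 and 0.0276 with siPrp19. It was lowest in replicate 3 of each group, while the 2 samples of a pair were close. DDC per TH was 0.216, 0.212 and 0.417 with siNC and 0.229, 0.218 and 0.416 with siPrp19, so it was highest in replicate 3.

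The order of the vesicular transporters was not the same in all samples. SLC18A1 per SLC18A2 was 4.17, 4.64 and 0.857 with siNC and 2.99, 4.07 and 1.11 with siPrp19. The gene for VMAT1 was thus the higher of the pair in 5 of 6 samples, and near the level of the gene for VMAT2 in both samples numbered 3. CHGB per CHGA was 0.398, 0.466 and 0.298 with siNC and 0.384, 0.549 and 0.380 with siPrp19, lowest in replicate 3 and highest in replicate 2 of each group, although replicates 1 and 3 with siPrp19 were close.

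**Figure D4:**
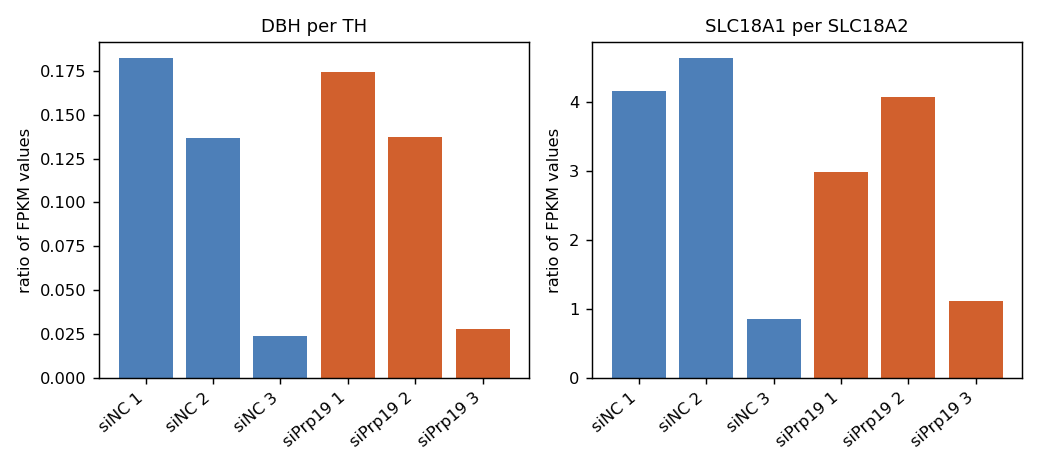
Ratio of FPKM values for DBH per TH (left) and SLC18A1 per SLC18A2 (right) in each library, siNC in blue and siPrp19 in orange, with axes from 0. DBH per TH falls from 0.137 to 0.182 in the samples numbered 1 and 2 to 0.0236 and 0.0276 in those numbered 3, and SLC18A1 per SLC18A2 from 2.99 to 4.64 to 0.857 and 1.11.

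Other genes of the pathway gave few calls with siPrp19. Limma called 0 genes of every list without and with the block, and the calls that follow are from voom with the block, beside 2.61% of all genes called higher and 4.3% called lower. Of 8 genes that supply cofactors and 5 genes of catecholamine breakdown in voom, 0 were called. Of the 9 cofactor genes in limma, 2 were higher and 1 was lower in all 3 pairs. MAOB, the other monoamine oxidase, was listed at 0 in 4 of 6 samples and PNMT, which makes adrenaline, stayed under 1 FPKM. Of 11 tested granule cargo and processing genes, 2 were called higher, VGF (log2 difference 0.29, voom adjusted p = 0.00066), a secreted granin-like protein, and PCSK1N (0.36, adjusted p = 0.00369), an inhibitor of prohormone convertase.

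Among 14 tested genes of vesicle acidification and exocytosis, RAB3A (0.30, voom adjusted p = 0.00669) and ATP6V0A1 (0.20, adjusted p = 0.0321) were called higher and SYT1 (−0.33, adjusted p = 0.000304), a calcium sensor of release, was called lower. Of 4 tested receptor genes, ADRA2C (0.61, voom adjusted p = 0.00795), an autoreceptor that restrains release, was called higher, on levels of 2.53 to 6.16 FPKM. The noradrenergic transcription factors were all tested. Of these 9, 2 were called lower, among them INSM1 (−0.55, voom adjusted p = 0.0212). PHOX2A, which activates DBH in sympathetic development, differed by 0.08 in limma. Neither of 2 other amine transporters in voom was called. None of the 3 genes listed as cholinergic (CHAT, SLC5A7 and ACHE) reached a mean of 1 FPKM. SLC18A3, the vesicular acetylcholine transporter, was listed with the other amine transporters and averaged 18.8 FPKM (11.2 to 26.5).

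By replicate number, the lists also moved in both directions. All differences here are replicate 3 minus the mean of replicates 1 and 2 on the log2 scale in the blocked limma fit. They are set against the 49.6% of all genes that passed the F-test. Lower and higher give only the sign of this difference, while the F-test takes in any difference among the replicate numbers. Of the 9 transcription factors, 7 passed, 6 of them lower in replicate 3 (among them GATA2 −0.57, PHOX2A −0.44 and HAND2 −0.32). Of the 14 exocytosis genes, 8 passed, 6 of them lower, led by RAB3A (−1.24), ATP6V1B2 (−1.12), a subunit of the proton pump that energizes vesicular uptake, and SYT7 (−0.96). ATP6V1B2 lies next to SLC18A1 on chromosome 8. ATP6V1A was counted among the 6 lower at −0.02 (SE 0.05), a difference within its error.

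Of the 11 granule genes, 8 passed, 4 lower and 4 higher. SST (1.52), VGF (0.81) and NPY (0.58), which are peptide or granin cargo, were higher, and PAM (−0.36), which amidates peptides, was lower. SCG2, the most abundant of them, ranged from 305 to 397 FPKM and was counted as lower at −0.01 (SE 0.05), a difference within its error. Of the 9 cofactor genes, 6 passed, 2 of them lower and 4 higher in replicate 3, among the latter PTS at only 0.08 (SE 0.06). Both other amine transporters that passed were lower, SLC18A3 (−0.98), the vesicular acetylcholine transporter, and SLC29A4 (−0.69), a low-affinity monoamine transporter.

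Of the 5 breakdown genes, only AKR1B1 passed (0.44), and of the 4 receptor genes DRD4 (−1.14) and ADRA2A (0.22) passed. DBH and SLC18A1 were lower in replicate 3 than any of the pathway genes tested.

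**Figure D5:**
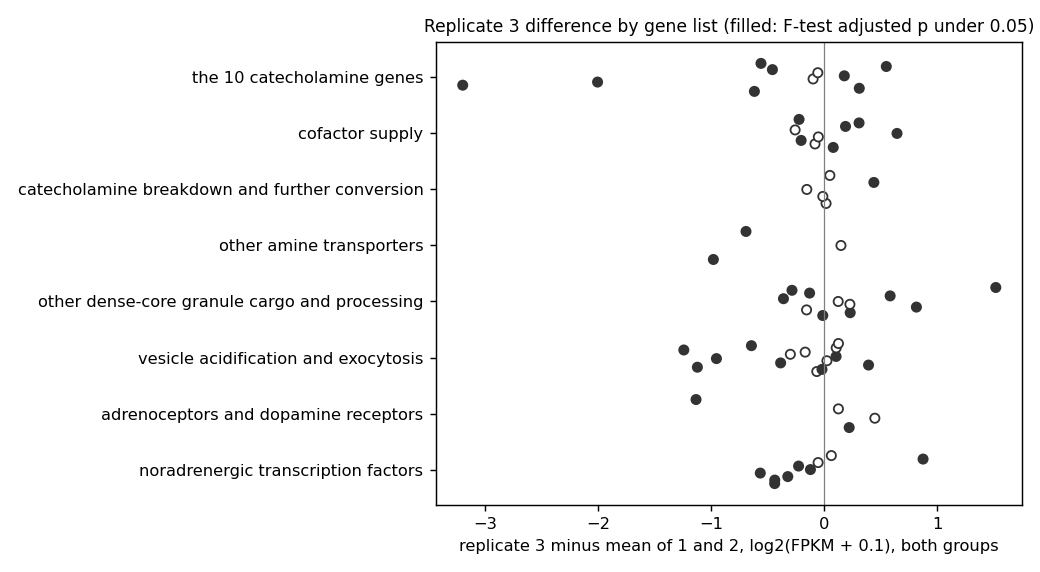
Replicate 3 minus the mean of replicates 1 and 2 in log2(FPKM + 0.1) over both groups for the 10 catecholamine genes and the tested genes of 7 pathway lists, 1 point per gene, filled where the limma F-test of the replicate number had an adjusted p under 0.05. DBH (−3.20) and SLC18A1 (−2.01) are the leftmost points, and every list but breakdown and other transporters has filled points on both sides of 0.

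Marker genes of the sympathoadrenal lineage were abundant and those of most other cell types were at or near 0. All 8 sympathoadrenal markers, which include TH, DBH and CHGA, were above the filter, and their summed level was 936 to 1289 FPKM with siNC and 974 to 1344 with siPrp19, lowest in replicate 3 of each group (936 and 974). The Schwann cell markers SOX10 and CDH19 were listed at 0 in all 6 samples, where the 5 markers of that type summed to 1.90 to 3.31 FPKM, and the summed levels of the 4 leukocyte and the 5 adrenal cortex markers stayed at or under 0.343 and 0.526 FPKM. Of 6 fibroblast and mesenchyme markers 5 were above the filter, with a summed level of 130.3 to 152 FPKM with siNC and 120.5 to 148 with siPrp19. That sum was 132 and 121.0 FPKM in the samples numbered 3, within the range of the others. The part of any cell mixture in the difference of DBH was not tested.

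DBH had the widest range of the 10 genes over the 6 samples, 3.62 on the log2 scale, which 306 of 14462 genes (2.12%) exceeded, and SLC18A1 followed with 2.52 (565 genes, 3.91%), against a median of 0.642 over all genes. The genes most like DBH were those with the smallest root mean square difference of centred log2 values over the 6 samples. They were ENSG00000236269 (0.16), IGF2 (0.20), HIST1H2APS3 (0.27), MIR210HG (0.29) and PPFIA4 (0.33). IGF2, a fetal growth factor, was 60.4, 57.7 and 6.28 FPKM with siNC and 56.1, 44.0 and 5.43 FPKM with siPrp19. Like DBH it was low in replicate 3 of both groups and close within pairs. SLC18A1 was 59th by this measure (0.59) and TH was 1026th.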

How the data were processed

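RNA-seq of 3 siNC and 3 siPrp19 samples of SK-N-BE(2) cells was used. The libraries were made from 3 µg of RNA. The authors deposited FPKM values for 58302 genes per sample. The submitters' processing notes name HISAT2 2.0.5, featureCounts 1.5.0-p3 and the build hg38, and the authors used DESeq2 for their own test, which was not repeated here. FPKM is relative to each library's total, so a large change in a few abundant genes moves all others.

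Log2(FPKM + 0.1) of 14462 genes, those averaging 1 FPKM or more, was tested with limma 3.58.1 in R 4.3.3 (eBayes with a trend, Benjamini-Hochberg over all genes), without a block, since the study names none, and with replicate number as blocking factor. The pairing comes from the numbers in the labels: deviations of same-numbered samples from their group means correlated at 0.381, 0.568 and 0.639, and those of differently numbered samples at −0.532 to 0.0455. Symbols and exon lengths came from GENCODE 29, which held 58039 of the genes. For 56590 of these (97.5%), or 96.1% of the 37521 not at 0 in every sample, FPKM times length was a whole number of reads within 0.05 reads or a relative 0.0001. The reads recovered were used for voom, in which 13705 genes were tested. DBH and SLC18A2 were not whole under these lengths and were left out of it. Limma without and with the block, and voom with the block, were tested on simulated data. Exact permutation tests used scipy 1.17.1 under Python 3.11.15.

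All 10 genes are named, with PRPF19, and other genes come from pathway and marker lists, where genes averaging 10 FPKM or more or with a call in any planned fit could be given values. The 5 genes most like DBH were found by a fixed measure. Values of other list genes, neighbours and ratios were chosen after they were seen. The members and lists were chosen with earlier results of these data known. Alternatives were a pseudocount of 1, no filter, a minimum mean of 5 FPKM, TPM, quantile normalization, eBayes without trend and robust, voom, the block and each sample left out. Counting error weighs most on SLC18A2, SLC18A1 and GCH1, the genes with the lowest levels. Values of some list genes are not reported here.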

Additional observations from a re-analysis of the deposited data

How the results depend on the processing

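No gene passed limma without the block, and this count stayed at 0 in each fit that left out 1 sample. It was 1 with eBayes without trend and robust, 0 with the replicate block, 124 with the replicate block and a mean of at least 5 FPKM, 947 in voom on recovered reads with the replicate block and 1244 in that fit with pair 3 left out. Of the catecholamine genes, 3 were called in voom with the replicate block and 4 with pair 3 left out, and 0 in the other fits. The log2 differences in these 2 voom fits were 0.23 and 0.24 for CHGB, 0.42 and 0.47 for MAOA and 0.32 and 0.37 for SLC6A2, all called. SLC18A1 was called only with pair 3 left out, at −0.43, and that choice removed the only pair in which it was higher. In limma on log2(FPKM + 0.1), adding only the replicate block left each log2 difference as it was and changed no call. In voom, adding it took the count from 0 to 947 genes and, for example, SLC18A1 from −0.19 to −0.32.

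Leaving out 1 sample at a time without the block moved the log2 difference between −1.14 (without siNC replicate 3) and 0.99 (without siPrp19 replicate 3) for DBH and between −0.97 and 0.37 for SLC18A1 under the same choices. The range was −0.29 to 0.12 for TH, −0.14 to 0.10 for DDC, −0.44 to 0.084 for GCH1, −0.26 to 0.14 for SLC18A2 and −0.17 to 0.19 for CHGA, all of which changed sign. SLC6A2, CHGB and MAOA kept their sign. The median over the 10 genes ranged from −0.21 (without siPrp19 replicate 1) to 0.20 (without siNC replicate 1). Genes that differed between replicate numbers were 7175 and fell to between 4123 (without siPrp19 replicate 2) and 5563, with 4395 without siNC replicate 2; 6 to 9 of the 10 catecholamine genes were among them. The replicate 3 difference of DBH was −3.35 to −2.93 in 11 fits, that of SLC18A1 −2.40 to −1.40 and that of TH −0.66 to −0.42 in 12, while CHGA (−0.21 to 0.10) changed sign. In the F-test CHGA passed without siNC replicate 1 (adjusted p = 0.0125) or siNC replicate 3 (0.0459), SLC6A2 was lost without siNC replicate 2 (0.0528) or siPrp19 replicate 2 (0.0847), and DDC was lost without siPrp19 replicate 2 (0.0700). At a minimum mean of 5 FPKM, 6 of the 10 genes were tested. No scaling moved the median of all genes by over 0.1. Precision is limited by 3 samples a group and, for SLC18A1 in replicate 3, by its few reads.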

Other observations

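The following values were looked up after the pattern of DBH and SLC18A1 had been seen. Within 1 Mb of DBH, 31 tested genes differed between replicate 3 and the mean of replicates 1 and 2 by −1.66 to 1.03 on the log2 scale with siNC (median −0.23) and by −0.66 to 1.34 with siPrp19 (median −0.18), so none was as low as DBH. Within 1 Mb of SLC18A1, 4 genes were tested. They differed by −2.01 to 0.92 with siNC (median −0.69) and by −1.11 to 0.89 with siPrp19 (median −0.48). The lowest with siNC was RNU6-892P, at 0.511 FPKM in replicate 3, and it differed by −0.57 with siPrp19. ATP6V1B2 was 46.3, 54.7 and 22.7 FPKM with siNC and 48.3, 57.5 and 24.5 FPKM with siPrp19, while LZTS1, a tumor suppressor candidate, was higher in replicate 3, by 0.92 with siNC and 0.89 with siPrp19.

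Of the other genes most like DBH, PPFIA4, a liprin-alpha scaffold protein, was 24.6, 24.1 and 3.55 FPKM with siNC and 23.9, 23.1 and 3.59 FPKM with siPrp19. MIR210HG, the host gene of a microRNA known to be induced by low oxygen, was 10.8, 10.9 and 1.29 FPKM with siNC and 14.4, 11.5 and 1.75 FPKM with siPrp19. In both genes replicate 3 was the lowest sample of each group.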
